A study of Homo sapiens with 2 samples.

Results

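CpG methylation was described at 8 genes for transcription factors of 2 families, the GATA factors GATA2, GATA3, GATA4, GATA5 and GATA6 and the COUP-TF nuclear receptors NR2F1, NR2F2 and NR2F6. The genes were chosen by name, and partly because CpG islands beside NR2F2 showed the largest gains in the same comparison of libraries. The values below are therefore a description of these loci, and no p-value is given for them. The 8 genes were taken out of 53141 annotated gene starts that could be measured, and their loci, meaning the gene body with 25 kb on either side, held 9500 of the 14699127 CpGs read in both libraries.

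The cells were HEK293T, a human embryonic kidney line, and methylation was read by whole-genome bisulfite sequencing (WGBS), in which unmethylated cytosines are read as T and methylated cytosines as C. One library was the negative control (Neg), which the study describes as cells that were not transduced. The other library, dCas9+3A+HOXA5, called the treated library below, came from cells transduced with lentiviral vectors for a nuclease-dead Cas9 carrying SunTag peptides, for DNMT3A, a DNA methyltransferase, joined to an antibody fragment that recognises SunTag, and for a guide RNA against HOXA5. These cells were sorted on the fluorescent markers of the vectors, and the labels give 30 days for the infection. The labels attach one treatment text to both libraries, so that only the titles tell them apart. No library with the constructs but without the guide, or with another guide, was compared here, so the effects of the guide, of free DNMT3A, of sorting and of time in culture cannot be told apart. The identity of the cells could not be checked by marker expression, since only methylation was analysed here.

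GATA factors bind a short DNA motif, from which they take their name, through zinc fingers and set cell fate. GATA2 and GATA3 are best known from blood, and GATA4, GATA5 and GATA6 from heart and endoderm. The COUP-TF receptors are orphan nuclear receptors that act mostly as repressors in the development of the nervous system, vessels and heart. Genes of this kind often lie in broad regions with many CpG islands and little methylation, and their main starts are usually free of methylation even where the gene is silent.

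The level of a region is an average taken across CpGs that had 1 read or more in each library, of the fraction of reads that were methylated, given in percent. The 2 libraries had 1 sample per group and thus no replicates. A region was called when its levels differed by more than 20 percentage points and a two-sided Fisher's exact test on the summed reads had a Benjamini-Hochberg adjusted p under 0.01 over all regions of that kind in the genome. A p-value of this kind separates 2 libraries, and it says nothing about how the conditions vary. Confidence intervals are 95% Wilson intervals of the share of methylated reads, and they cover counting error only, since reads and CpGs of one fragment are not independent.

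Depth was low in both libraries. Neg had a mean of 3.795 reads and dCas9+3A+HOXA5 a mean of 2.895 reads per listed CpG, and 29.9% and 17.5% of the CpGs had 5 reads or more. Over the CpGs of both libraries the ratio of reads, dCas9+3A+HOXA5 to Neg, was 0.701, and in the 8 loci it ran from 0.621 (GATA2) to 0.888 (GATA4). At the targeted gene, the HOXA5 promoter was at 1.87% in Neg and 41.2% in the treated library over 116 CpGs, which is the direction its label gives. Levels over the whole genome also tended to be higher in the treated library, with a median difference of 2.54 points over all promoters and 4.77 points over all 1-kb tiles. Over all predicted CpG islands the median difference was only 0.776 points, and the median level was 54.75% in Neg and 53.25% in the treated library.

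The sequences below show the CpG context of the largest differences, together with 1 stretch beside a start that stayed low and 1 that was lower. All are on the plus strand of hg19, read from the GRCh37 assembly, and were chosen after their values were seen. Capitals mark the CpGs that had reads in both libraries. The first stretch, chr15:96888929-96889228, lies in an island 19.98 kb downstream of the NR2F2 start. The second, chr15:96904774-96905073, lies 35.9 kb downstream of that start in an intron of the long non-coding gene ENSG00000259275. The third, chr5:92938068-92938367, lies in an island 19.3 kb downstream of the NR2F1 start. The fourth, chr10:8088063-8088362, lies in a GATA3 intron next to the outermost start. The fifth, chr18:19749250-19749549, holds the 300 bases before the GATA6 start. The sixth, chr20:61048445-61048744, lies in an island that overlaps a coding exon of GATA5.
NR2F2 island, 19.98 kb: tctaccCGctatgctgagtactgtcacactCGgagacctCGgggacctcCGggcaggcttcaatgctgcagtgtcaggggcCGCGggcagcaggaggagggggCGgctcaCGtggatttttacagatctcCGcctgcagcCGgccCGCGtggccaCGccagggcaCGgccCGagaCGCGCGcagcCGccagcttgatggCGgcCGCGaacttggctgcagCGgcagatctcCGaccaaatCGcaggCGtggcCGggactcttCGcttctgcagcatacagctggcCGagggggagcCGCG
NR2F2 island, 35.9 kb: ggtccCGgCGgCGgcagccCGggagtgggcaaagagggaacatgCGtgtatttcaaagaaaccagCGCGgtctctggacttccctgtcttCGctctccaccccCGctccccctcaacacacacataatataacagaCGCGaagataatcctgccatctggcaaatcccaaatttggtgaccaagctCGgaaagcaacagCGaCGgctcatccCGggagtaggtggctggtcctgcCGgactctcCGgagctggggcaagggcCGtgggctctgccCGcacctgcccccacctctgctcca
NR2F1 island, 19.3 kb: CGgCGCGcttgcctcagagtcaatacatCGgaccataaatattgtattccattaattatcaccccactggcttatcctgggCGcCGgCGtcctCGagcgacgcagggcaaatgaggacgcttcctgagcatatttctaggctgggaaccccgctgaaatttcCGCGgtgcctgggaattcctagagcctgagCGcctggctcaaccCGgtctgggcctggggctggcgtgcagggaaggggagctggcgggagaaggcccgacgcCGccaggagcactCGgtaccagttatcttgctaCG
GATA3 intron: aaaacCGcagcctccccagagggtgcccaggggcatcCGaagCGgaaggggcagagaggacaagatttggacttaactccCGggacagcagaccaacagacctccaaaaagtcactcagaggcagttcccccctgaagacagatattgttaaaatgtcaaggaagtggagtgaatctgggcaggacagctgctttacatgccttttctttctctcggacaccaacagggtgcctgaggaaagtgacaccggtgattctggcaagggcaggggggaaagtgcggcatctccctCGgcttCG
GATA6 upstream: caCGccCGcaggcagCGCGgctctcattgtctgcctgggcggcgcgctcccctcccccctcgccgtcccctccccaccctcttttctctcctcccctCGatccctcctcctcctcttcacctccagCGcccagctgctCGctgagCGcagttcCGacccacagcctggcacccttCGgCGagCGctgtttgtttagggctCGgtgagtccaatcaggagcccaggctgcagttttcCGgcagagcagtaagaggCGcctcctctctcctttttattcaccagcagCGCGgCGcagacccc
GATA5 island: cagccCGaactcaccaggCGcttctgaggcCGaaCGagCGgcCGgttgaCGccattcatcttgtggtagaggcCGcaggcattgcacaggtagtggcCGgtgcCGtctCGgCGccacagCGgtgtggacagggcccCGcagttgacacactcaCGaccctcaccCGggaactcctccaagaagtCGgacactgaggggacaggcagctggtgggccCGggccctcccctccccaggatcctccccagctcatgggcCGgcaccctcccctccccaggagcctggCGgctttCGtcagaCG

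In the first NR2F2 stretch all 31 CpGs had a higher fraction in the treated library than in Neg, and the mean went from 3.93% to 83.6%. Of these CpGs 27 were at 0 in Neg. In the second NR2F2 stretch 18 of 19 CpGs were higher and 1 was lower, with means of 13.6% and 96.0%. In the NR2F1 stretch, 15 of the 23 CpGs were read in both libraries, all 15 were at 0 in Neg, and 14 were at 100% in the treated library, on 36 and 19 reads in all. In the GATA3 stretch the 6 of 9 CpGs read in both libraries were at a mean of 21.1% in Neg and all at 100% in the treated library. These stretches were chosen for their differences, and the CpGs without reads in both libraries were not measured. The GATA6 stretch was different, with 18 CpGs at 0.794% in Neg and all 18 at 0 in the treated library. There 0 of 44 reads allows a share of up to 6.82%, taken as 3 counts of the total and not as a Wilson bound. Reads of a region are summed over its CpGs, so a fragment counts once for each CpG it covers, and this bound is too tight. In the GATA5 stretch 6 of 22 CpGs were lower, 16 were equal and none was higher, with means of 98.2% in Neg and 77.9% in the treated library. Of the 22, 21 were at 100% in Neg and could not be higher.

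**Figure D1:**
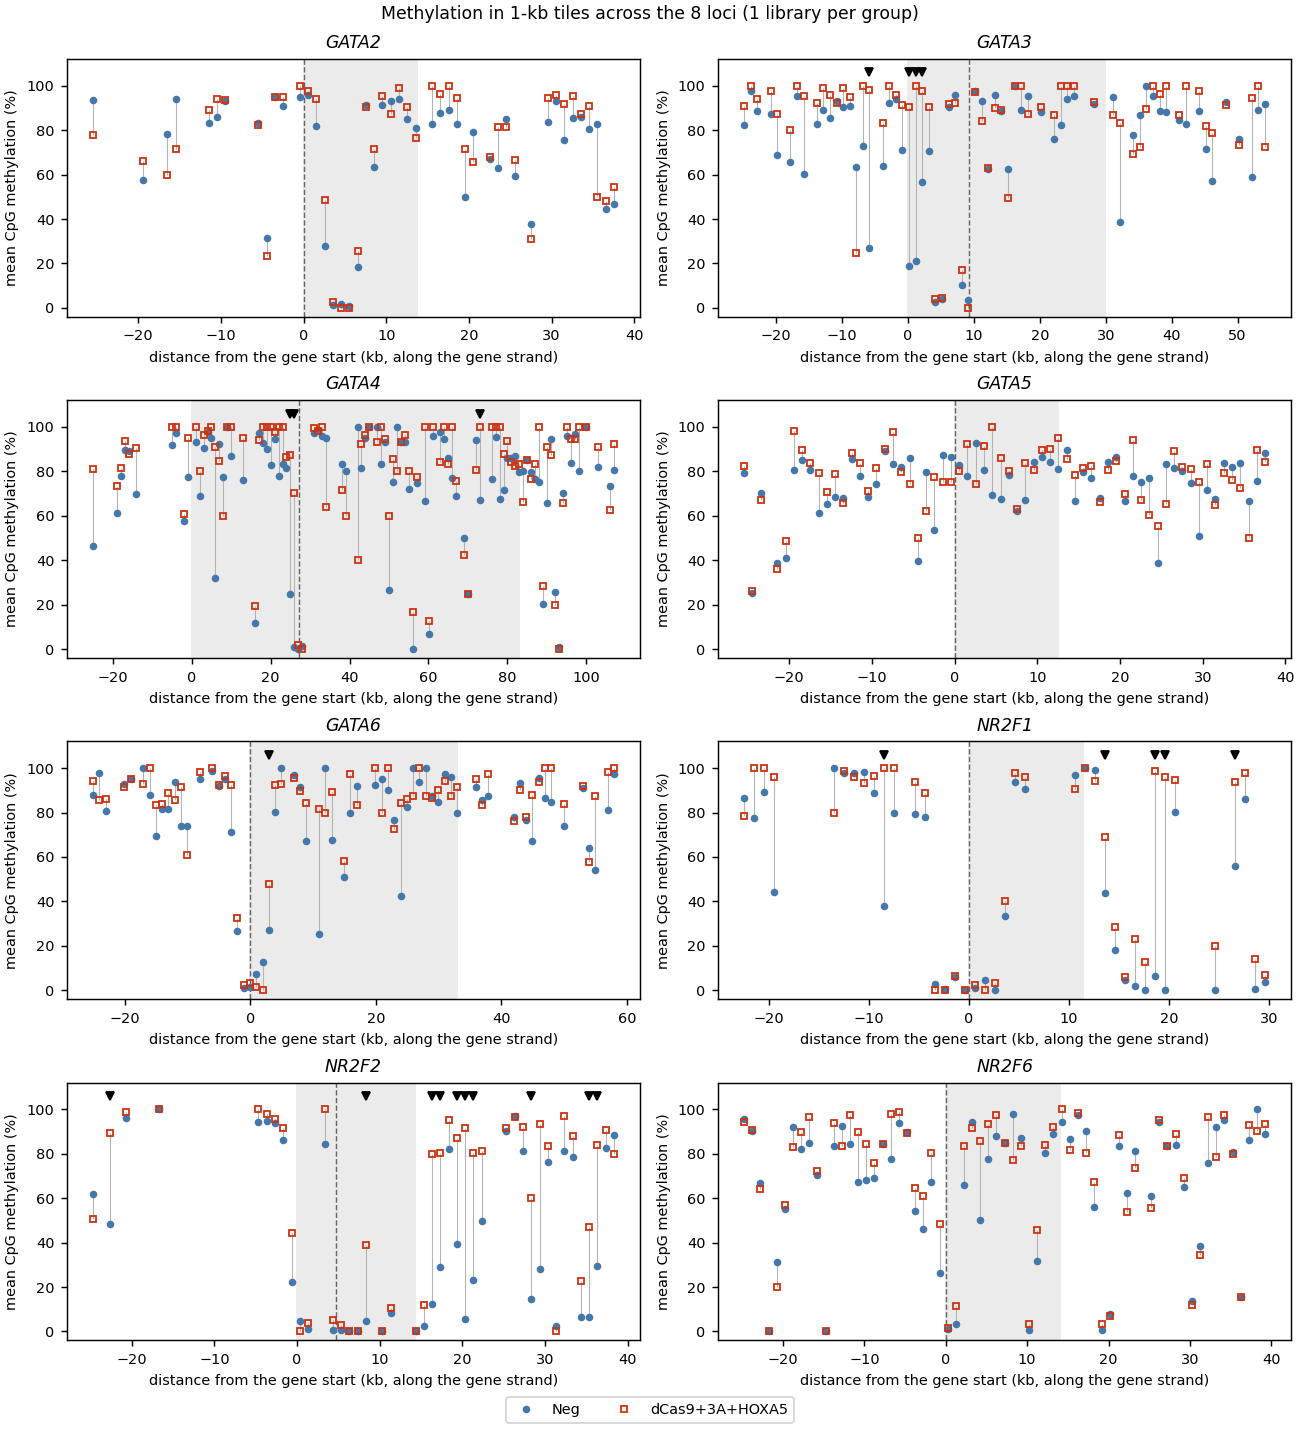
Mean CpG methylation (%) in 1-kb tiles against distance from the outermost annotated gene start (kb, along the gene strand) at the 8 loci. Filled circles are Neg, open squares dCas9+3A+HOXA5, grey lines join the same tile, grey shading is the gene body, the dashed line is the start of the MANE Select transcript, and black triangles mark the 23 called tiles; tiles with at least 5 CpGs are drawn, and the NR2F2 panel holds 10 of the 23.

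Of the GATA genes of blood, GATA2, which maintains blood stem cells, was methylated at its outermost start and near 0 at a group of internal starts. Its promoter, 1 kb either side of the outermost start (chr3:128211044-128213044), was at 95.6% in Neg and 98.2% in the treated library over 108 CpGs. Around the internal start 5285 bp downstream, the levels were 0.403% and 0.0% over 91 CpGs, while the start 11257 bp inside was methylated again, at 95.4% and 98.4% over 44 CpGs. The difference was 2.60 points at the outermost start and -0.403 points at the start 5285 bp inside. None of the 46 tiles and none of the 4 islands of the GATA2 locus was called, which at these numbers is near the background, since over the genome 1.43% of tiles were called higher and 0.391% lower, and 1.92% and 1.29% of islands. The start 2553 bp inside the gene had the largest difference of the GATA2 starts, 21.9% in Neg and 34.7% in the treated library.

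GATA3, which drives T helper and luminal breast cell fates, held the only member promoter that was called. At its outermost start (chr10:8086341-8088341) the level was 33.4% in Neg and 93.6% in the treated library over 34 CpGs, a difference of 60.2 points. The share of methylated reads was 29.5% (22.8 to 37.3, 149 reads) in Neg and 94.8% (89.1 to 97.6, 115 reads) in the treated library. Over all promoters, 2.31% were called higher and 0.589% lower, and 173 of 53141 had a difference at least as high as that of GATA3. Since GATA3 belongs to a set chosen on this contrast, nothing is read from the count of 1 in 8. With at least 5 reads per CpG in both libraries, fewer than 5 CpGs were left and the promoter could not be called.

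The difference at GATA3 lay around the outermost start and was not found at its other starts. The MANE Select transcript, the curated representative transcript, starts 9310 bp further downstream, and there the level was 70.7% in Neg and 68.5% in the treated library over 54 CpGs. At the MANE starts of the 8 genes none was called, beside 1.48% called higher and 0.577% lower over all 17678 such starts. The starts at 8226 and 13021 bp from the outermost one differed by 4.52 and by -4.57 points. By shares of methylated reads these 2 differences were -0.425 and -13.5 points, and that at the MANE start was -12.5 points. The 4 called tiles of the locus lay at -5.84, 0.1595, 1.16 and 2.16 kb from the outermost start, with Neg levels from 18.6% to 56.7% and dCas9+3A+HOXA5 levels from 90.6% to 100%. The largest of these was in an intron, at 21.2% and 100% over 11 CpGs. The tiles 4.16 and 5.16 kb from the outermost start were low in both libraries, at 2.69% and 4.09% in Neg and at 3.85% and 4.41% in the treated library.

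The GATA3 island over the MANE start gave another picture by mean and by reads. Its level over 119 CpGs was 64.8% in Neg and 65.1% in the treated library, whereas the shares of methylated reads were 68.8% and 35.0%. By read shares the difference was -33.8 points (-39.85 to -27.25, 500 and 371 reads), and the island was called lower under that setting. The reads of the libraries were thus spread differently over the CpGs of this island, and no direction is given for it. The island at chr10:8079011-8079729, before the outermost start, had 32 of 49 reads methylated in Neg and 3 of 12 in the treated library, over 12 CpGs, and was not called.

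GATA4, a factor of the embryonic heart and endoderm, differed in an intron just before its main start. Its outermost promoter (chr8:11533468-11535468) was at 82.3% in Neg and 96.7% in the treated library, on 15 CpGs with 39 and 47 reads, and was not called. At the MANE start, 27243 bp downstream, the levels were 1.53% and 0.680%. The island at chr8:11559540-11561055, inside an intron 1.41 kb before that start, was at 6.54% in Neg and 73.3% in the treated library over 43 CpGs, with 141 and 77 reads, and too few of these CpGs had 3 reads in both libraries to repeat the comparison. The called tile with the largest difference of this locus lies in that island, 26.0 kb from the outermost start, at 0.759% and 70.5% over 22 CpGs with 64 and 41 reads. The next island, at chr8:11561254-11563213 over the MANE start, was at 1.21% and 0.0% over 62 CpGs. In the treated library, a high and a low island thus lay next to each other. A second called island of GATA4, in a coding exon 73.1 kb from the outermost start, was at 71.1% in Neg and 100% in the treated library.

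GATA5, a factor of heart and gut that is often methylated in tumours, was methylated at its start in both libraries. It held the only island of the 8 loci that was called lower, 1 of 60, which is near the 1.29% of all islands called lower. Its promoter (chr20:61050051-61052051) was at 84.6% in Neg and 77.8% in the treated library over 194 CpGs, and was not called. The island over a coding exon at chr20:61048390-61048953 was at 96.5% in Neg and 69.7% in the treated library over 26 CpGs. The shares of methylated reads were 96.6% (90.5 to 98.8, 88 reads) and 73.4% (61.5 to 82.7, 64 reads). When at least 3 or 5 reads were asked of each CpG, the difference was -21.0 and -13.3 points, on 7 and 6 CpGs, and the island was not called. None of the 63 tiles of this locus was called, near the background of 1.43% higher and 0.391% lower, and all of them had Neg levels above 20%.

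GATA6, a factor of endoderm and heart with a large island at its start, stayed near 0 there. Its promoter (chr18:19748550-19750550) was at 1.43% in Neg and 2.13% in the treated library over 146 CpGs. Around its second start, 1344 bp downstream, the level was 10.5% in Neg and 0.605% in the treated library over 163 CpGs, with 77 of 835 and 6 of 522 reads methylated. The tile 2.95 kb from the start, which holds coding sequence, lay on the other side, at 27.0% in Neg and 47.7% in the treated library over 52 CpGs. It was the only called tile of 65, a count near the background of 1.43% of tiles called higher. With at least 3 reads per CpG the difference of this tile fell from 20.7 to 12.5 points, on 14 CpGs, under the limit for a call, by read shares it was 31.4 points, and at 5 reads too few CpGs were left. The difference at the second start, -9.89 points, did not reach that limit either.

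NR2F1, a receptor that patterns the cortex, was unmethylated at its start and differed most in the 25 kb downstream of the gene. Its promoter (chr5:92917928-92919928) was at 1.39% in Neg and 2.78% in the treated library over 36 CpGs. The downstream flank was at 42.4% and 65.7% over 291 CpGs, a difference of 23.3 points, and was called. The share of methylated reads was 44.1% (41.1 to 47.2) in Neg and 76.2% (73.1 to 79.0) in the treated library. With CpGs of at least 3 or 5 reads the difference was 15.3 or 17.5 points, on 74 and 23 CpGs, and was no longer called.

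Within the NR2F1 flank, the tile 19.6 kb from the start had 0 of 50 reads methylated in Neg and 30 of 31 in the treated library. By the same rule, 0 of 50 allows a share of up to 6%, a bound that is again too tight because reads were summed over CpGs. The neighbouring tile, 18.6 kb from the start, was at 6.41% and 98.9% over 13 CpGs. The island chr5:92937983-92938486 lies almost wholly in the tile 19.6 kb from the start. It was at 0.0% in Neg and 94.7% in the treated library over 19 CpGs, with 40 and 23 reads. Likewise, this island could not be compared at 3 reads per CpG. It lies on an exon of ENSG00000278905, a transcript whose type the annotation leaves unsettled. The promoter of that transcript was at 0.0% and 15.0% over 20 CpGs and was not called. Of the other 10 islands of the NR2F1 locus, none was called, beside 1.92% called higher and 1.29% lower over all islands, and the one at 28.9 kb remained low, at 0.414% in Neg and 6.82% in the treated library.

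NR2F2, a receptor of veins and lymphatics, had the most called regions of the 8 genes. Its outermost promoter (chr15:96868167-96870167) was at 7.50% in Neg and 10.3% in the treated library over 39 CpGs, and the MANE start 4762 bp downstream was at 0.60% and 4.11% over 111 CpGs. The downstream flank was at 43.0% in Neg and 71.3% in the treated library over 633 CpGs, a difference of 28.3 points, and was called. The shares of methylated reads there were 48.6% (46.8 to 50.3, 3046 reads) and 76.5% (74.6 to 78.2, 2081 reads). The difference was 31.5 and 28.4 points when at least 3 or 5 reads were asked of each CpG.

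Of the 13 islands of the NR2F2 locus, 7 were called higher, beside 1.92% of all islands, and nothing is read from this count, since the genes were chosen partly for these gains. All 7 lay between the middle of the gene and the end of the downstream flank. The largest difference was at chr15:96904774-96905281, at 9.76% in Neg and 93.4% in the treated library over 28 CpGs. The island at chr15:96888684-96889602 came close to it, at 4.81% and 87.6% over 44 CpGs. The called tile with the largest difference, 20.3 kb from the outermost start, overlaps the latter island and was at 5.57% and 91.5% over 38 CpGs. The island over coding sequence of NR2F2 (chr15:96876115-96877992), which also holds the microRNA gene MIR1469, was at 3.92% and 33.5%. The other 4 called islands differed by 27.0 to 50.6 points. These islands were not one block, because low islands lay between and beside them. The island over the MANE start was at 0.430% in Neg and 1.65% in the treated library over 155 CpGs. The islands 31.2 and 34.3 kb from the outermost start were at 2.21% and 0.923% in Neg and at 0.0% and 5.91% in the treated library, and the island with the largest difference lay 35.9 kb from it. The first island beyond the 25-kb limit, by 338 bp, was at 94.0% in Neg and 95.7% in the treated library.

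The NR2F2 gene body had the lowest Neg level of the 8 bodies, 4.47%, and was at 13.9% in the treated library over 306 CpGs. It was not called with all CpGs, but with at least 5 reads per CpG the difference was 24.6 points on 38 CpGs and was called. Within the body, the tile 8.33 kb from the outermost start was at 4.55% in Neg and 38.9% in the treated library over 62 CpGs, and was the only called tile of the gene body. The body and this tile both overlap the called island over coding sequence of NR2F2. Since the genes were chosen partly for the gains of islands at this locus, nothing is read from these calls.

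NR2F6, a receptor that restrains T cell responses, had no called region. Its promoter (chr19:17355728-17357728) was at 5.69% in Neg and 10.0% in the treated library over 130 CpGs, with 25 of 367 and 26 of 337 reads methylated. Its downstream flank was at 63.2% and 63.9%, but by shares of methylated reads it was at 66.2% in Neg and 61.5% in the treated library, so no direction is given for it. None of its 64 tested tiles and 7 islands was called, again near the background of 1.43% of tiles and 1.92% of islands called higher.

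**Figure D2:**
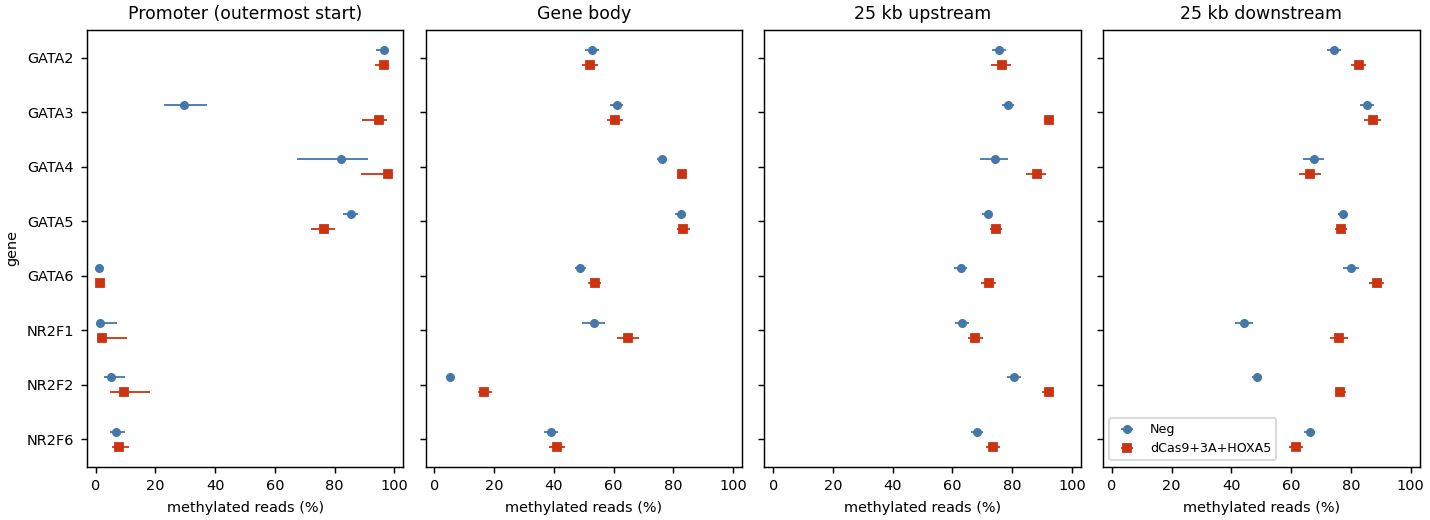
Share of methylated reads (%) in the promoter, gene body and 25-kb flanks of the 8 genes, with 95% Wilson intervals for counting error (1 library per group). Circles are Neg and squares dCas9+3A+HOXA5; intervals are far apart at the GATA3 promoter and at the downstream flanks of NR2F1 and NR2F2.

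Set side by side by region, the 8 promoters had a median difference of 2.68 points against 2.54 over all promoters. Signs among them turned with the processing, at 3 reads per CpG to -8.33 points for NR2F2 and -0.867 for NR2F6, and at the MANE starts to -2.21 for GATA3 and -0.851 for GATA4. The median over the 8 bodies was 4.52 points against 4.17 over all genes, and none of the bodies was called, beside 3.81% called higher and 0.534% lower over all bodies. The upstream flanks differed by 0.179 points (GATA2) to 13.1 points (GATA4), with none called, beside 2.68% called higher and 0.116% lower over all protein-coding genes. Both ends of this range moved with depth, to -2.58 points for GATA2 and 3.36 for GATA4 at 3 reads per CpG, and to -8.71 and -2.96 at 5 reads. In the downstream flanks 2 of 8 were called higher, beside 3.45% called higher and 0.121% lower. The differences of NR2F1 and NR2F2 there were reached or passed by 507 and 255 of the 19906 flanks. The NR2F2 flank contains called islands beside NR2F2, for whose gains the genes were partly chosen. Nothing is therefore read from its rank or from the count of 2 in 8. The promoters of GATA6, NR2F1, NR2F2 and NR2F6 were under 20% in Neg, and none was called, beside 1.56% called higher among all such promoters.

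**Figure D3:**
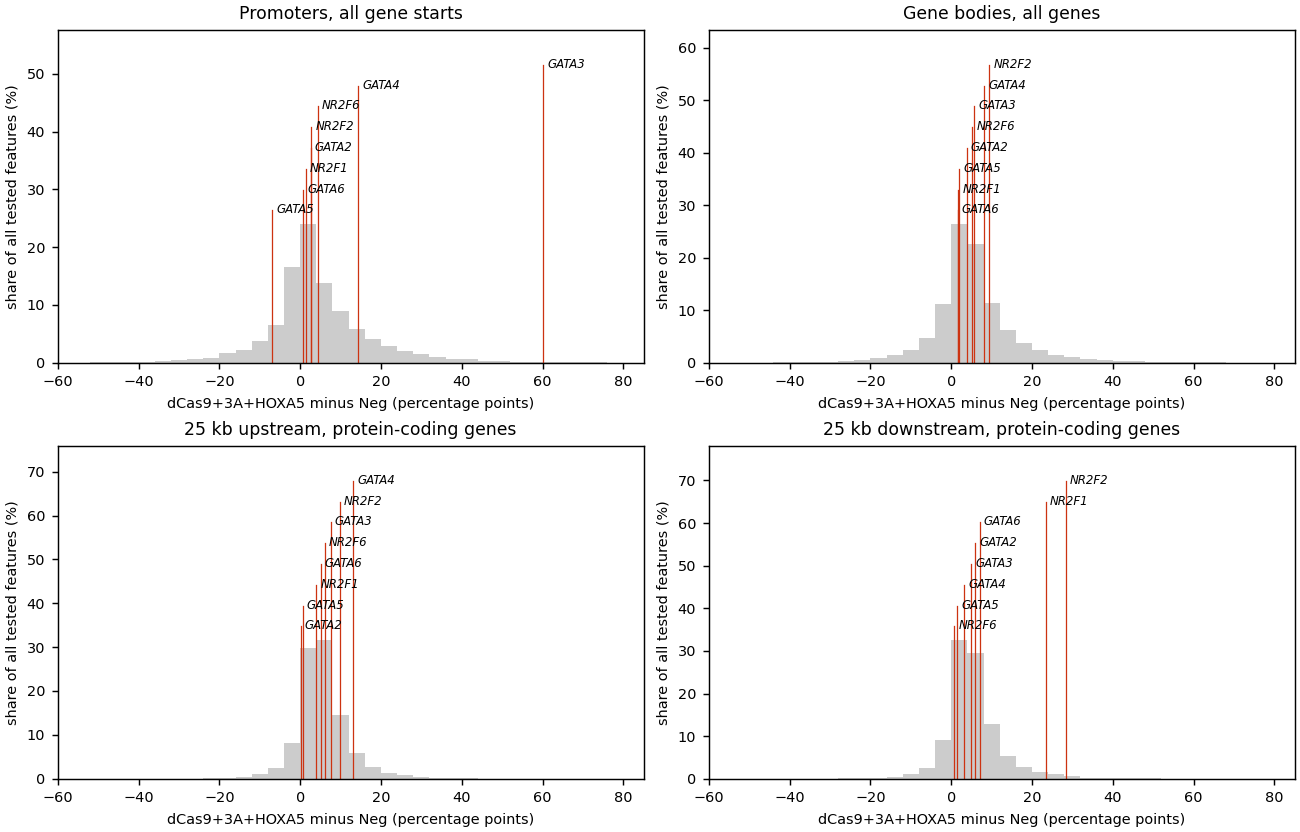
Difference in mean methylation (dCas9+3A+HOXA5 minus Neg, percentage points) over all tested promoters, gene bodies and 25-kb flanks, as grey histograms of the share of all features (%), with a red line at each of the 8 genes. The line of GATA3 among promoters and those of NR2F1 and NR2F2 among downstream flanks stand to the right of the bulk; line heights serve only to separate the names.

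Among the 477 tested 1-kb tiles of the 8 loci, 23 were called higher and none lower, beside 1.43% called higher and 0.391% lower over all tiles. They fell on NR2F2 (10 of 42), NR2F1 (5 of 39), GATA3 (4 of 64), GATA4 (3 of 94) and GATA6 (1 of 65). Tiles under 20% in Neg made up 62 of the 477, and 9 of these were called, beside 3.52% of all such tiles. Tiles of 20 to 80% in Neg gave 14 of 169 called higher and none lower, beside 2.25% and 0.556%. Tiles over 80% in Neg cannot be called higher by more than 20 points, and none of 246 was called lower, beside 0.282%. Of the 60 tested islands, 10 were called higher and 1 lower, beside 1.92% and 1.29% of all islands. Islands under 20% in Neg gave 6 of 22 called higher, beside 1.46%. NR2F2 held 7 of the 10 islands called higher and 4 of these 6. Since the genes were chosen partly for the gains of islands beside NR2F2, nothing is read from these counts of tiles and islands.

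**Figure D4:**
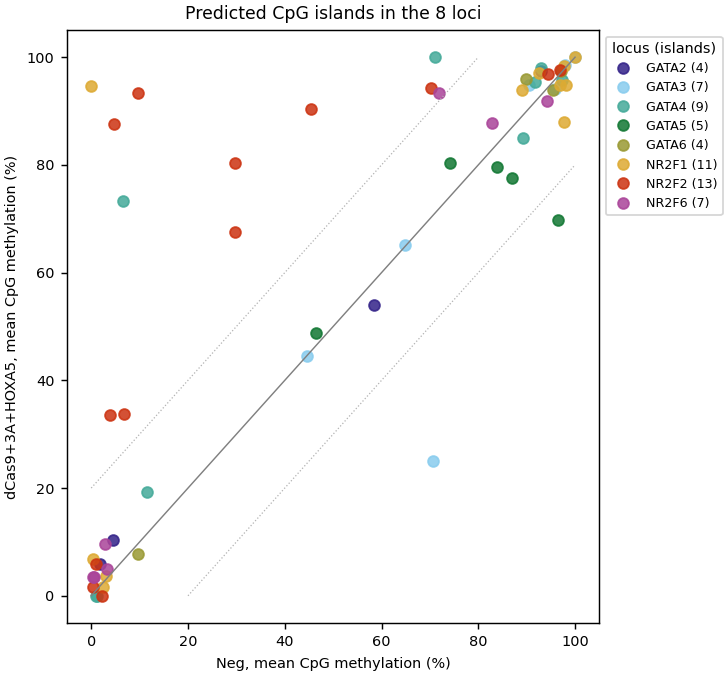
Mean CpG methylation (%) of the 60 tested CpG islands of the 8 loci, Neg on the horizontal and dCas9+3A+HOXA5 on the vertical axis, coloured by locus (number of islands in the legend). The solid line marks equal levels and the dotted lines a difference of 20 points; NR2F2 islands make up 7 of the 10 called higher, and many of the others lie near 0 or 100 in both libraries.

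The promoters of GATA2-AS1, GATA3-AS1, GATA6-AS1, NR2F1-AS1 and NR2F2-AS1, the antisense or divergent partners, differed by -2.13 to 2.51 points, and none of the 5 was called, beside 2.31% called higher and 0.589% lower over all promoters. In the downstream flank of NR2F2, the promoter of ENSG00000275322 was at 33.5% in Neg and 80.6% in the treated library, and that of ENSG00000259275 was at 30.8% and 69.2%. Both were called higher and were the only called starts of other genes in the 8 loci. Both windows overlap called islands beside NR2F2, for whose gains the genes were partly chosen, so nothing is read from these calls.

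Related genes were looked at by their promoters, 56 of 59 with enough CpGs. They comprised other GATA-type zinc finger genes, GATA cofactors, other NR2 receptors, COUP-TF cofactors, heart and endoderm factors and the antisense partners. Their median difference was 1.01 points, with 1 called higher and 1 lower, beside 2.31% and 0.589% over all promoters. MECOM, a zinc finger factor of blood stem cells, was at 16.7% in Neg and 62.5% in the treated library. LYL1, a basic helix-loop-helix partner of GATA complexes, was at 70.3% and 42.0%, and no promoter of these lists was called lower with at least 3 or 5 reads per CpG. The other lists held no call.

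In sequence, the 8 promoters ranged from 22.5 CpGs per kb (GATA4) to 116 (NR2F6), against a median of 16.0 over 64309 promoters. The letters AGATAA, which the zinc finger factors bind, were found on either strand in the promoters of GATA3 (3 matches), GATA4 (2), GATA6 (4) and NR2F2 (2), and in 62.9% of all promoters of the same length. The letters AGGTCA, a nuclear receptor motif whose first base may be the last of the former, were found in all but those of NR2F1 and NR2F2, and in 73.0% of all promoters. No site with up to 4 mismatches to the 20 bases of the HOXA5 guide before an NGG lay in the 8 loci, and 1 site with 5 mismatches lay in NR2F6, at chr19:17356400-17356419 on the minus strand.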

How the data were processed

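Methylation was measured by WGBS in 1 Neg and 1 dCas9+3A+HOXA5 library of HEK293T cells. According to the methods, the authors quality-trimmed the reads, aligned them to hg19 with BSMAP (version 2.90 in the submitters' processing notes) and calculated methylation per CpG; the sources used here give no handling of duplicates. The deposited columns hold the count of C reads and of C or T reads, an estimated count, in which opposite-strand reads correct for variants, and the methylated fraction with its bounds, which the authors computed from these. The fraction equalled C over the estimated count, capped at 1, within 0.0051 in all rows of both files. The study states a minimum of 5 reads, but CpGs with fewer are listed, and 1 read in both libraries was asked here, with 3 and 5 as alternatives; a CpG with 1 read can only be at 0 or 100%.

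Genes came from GENCODE release 44 on GRCh37, whose CG positions matched 99.83% and 100.0% of the listed CpGs. Islands, 35849 in all, were predicted with a minimum length of 500 bp, 55% GC and a CpG observed to expected ratio of 0.65. Regions with at least 5 CpGs were tested (Python 3.11.15, scipy 1.17.1). On simulated data no unplanted region was called. Reads were drawn independently there, unlike those of one fragment, so this does not give the rate of false calls in these libraries. The recovery first aimed at was missed, because planted changes were mostly missed where a library had few reads. The criterion was then restricted to deep regions, and a region without a call is not shown to be equal. The members and lists were chosen with earlier results of these data known. Named in the text are the 8 genes, the called tile and island with the largest gain and loss per locus, called genes of the lists, and HOXA5; other tiles, islands and starts, and the sequences, were named after their values were seen. Alternatives were the minimum of reads, read shares, the variant correction, deep CpGs, window sizes, island rules and gene starts.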

Additional observations from a re-analysis of the deposited data

How the results depend on the processing

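With 1 library per group, no library could be left out. No paired analysis was possible because there was only 1 library per group. With at least 5 reads per CpG, calls went to 0 promoters (1 of 8 testable), 1 body (NR2F2), 1 downstream flank, 3 of 65 tiles and 3 of 26 islands called higher, and 0 islands and 0 list promoters called lower. With at least 3 reads they were 1 downstream flank, 6 of 47 islands higher, 0 islands lower and 0 list promoters lower; fewer regions could be tested at these depths. The GATA5 island called lower differed by -21.0 points at 3 reads and -13.3 at 5, on 7 and 6 CpGs. By read shares, 2 islands, that of GATA5 and that over the GATA3 MANE start, and 2 list promoters were called lower. The shares of all regions called under these settings are not given here, so nothing is read from these counts. At the MANE starts, an alternative chosen after seeing the data, 0 of 8 promoters were called, and GATA3 differed by -2.21 points there and by -4.57 at its lowest other start. Counts of calls at the other annotated starts were not run. Of 256 single differences under all alternatives, 208 moved by less than the counting error, 46 moved by more and 2 reversed. The counting error was the distance from the midpoint to a bound of the 95% interval of the difference in read shares. A reversal was counted only where the region was called with the main settings. Other changes of sign are among the 208 and the 46, such as that of the GATA2 body from 3.80 to -0.742 points by read shares. The variant correction and variant CpGs moved none of these differences beyond that error. Leaving out CpGs over 50 reads removed no CpG from these regions, so its 41 values could not move. The MANE start is the outermost start in GATA2, GATA5, GATA6, NR2F1 and NR2F6, so their values at that start could not move either. All of these are among the 208.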
